A study of Homo sapiens with 12 samples.

Results

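The 35 genes described here are known targets of the transcription factor NF-kappaB, chosen by name from the 26641 genes of the count table, without the subunits of NF-kappaB itself. They were read in all 12 RNA-seq libraries of a study on LTR5HS, the long terminal repeats of the human endogenous retrovirus HERVK. The cells were NCCIT, a human embryonal carcinoma line. By transposon integration and drug selection, 6 lines had been made, each carrying 1 doxycycline-inducible dCas9 fusion and 1 array of 12 guides, and each gave 2 biological replicates after 4 days of doxycycline, so every control also carried a fusion and received the drug. dCas9-VPR holds an activating domain and dCas9-KRAB a repressing domain. The LTR5HS Sp array has a guide scaffold that the S. pyogenes fusions can use, and its lines are called recruitment. The LTR5HS Sa array has the same targets with an S. aureus scaffold that these fusions cannot use, and the nontarget Sp array has no match in the genome; the 4 libraries with these arrays are called control within each fusion. The question was whether the change of NFKB2, a subunit gene close to an LTR5HS, was accompanied by changes of genes that NF-kappaB is known to regulate.

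NF-kappaB is a family of dimers that cytoplasmic inhibitors hold back until receptors such as those for tumor necrosis factor or for microbial products activate kinases that release them. The released dimers enter the nucleus and bind short kappaB sites near genes of inflammation, cell survival and adhesion. In the non-canonical branch, the NFKB2 product p100 is both a precursor of the subunit p52 and an inhibitor that retains RELB in the cytoplasm, so a change of NFKB2 RNA alone does not state in which direction nuclear activity moves. Several targets are themselves inhibitors and form a feedback loop.

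All values are counts of reads per gene, shown as CPM, that is, divided by the library total after adjustment by the trimmed mean of M values (TMM). The libraries held between 13601701 and 69797411 counts, and 3 counts, taken as the floor, corresponded to between 0.0455 and 0.233 CPM. The embryonal carcinoma label was checked with 9 pluripotency markers. Each was above 1 CPM in at least 1 library, but their summed level was between 1103 and 1721 CPM in the dCas9-VPR libraries and between 4773 and 6288 CPM in the dCas9-KRAB libraries. NANOG, a core pluripotency factor, reached at most 5.0 CPM with dCas9-VPR and at least 92.8 CPM with dCas9-KRAB. PTPRC, CD3E, CD14 and ITGAM, which define blood cells in which NF-kappaB targets are often high, were below 1 CPM in every library. Of the 8 mesenchymal markers, COL1A1 reached between 2897 and 3006 CPM in dCas9-VPR recruitment against 60.2 to 90.1 CPM in its control, while COL1A2 stayed at or below 0.267 CPM in all 12 libraries. Of the 6 mesenchymal markers tested with dCas9-VPR, 3 rose with recruitment (COL1A1, PDGFRA and THY1). Of the epithelial markers KRT8 (4752 to 6042 CPM against 2176 to 3569 CPM in control) and TP63 rose and EPCAM fell, and of the pluripotency markers L1TD1 rose and SOX2 and DNMT3B fell. The part of these differences in the results below was not tested.

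NFKB2 was measured first, since the list was read for what accompanied it. In dCas9-VPR recruitment it was at 504 and 603 CPM, against 55.9 and 58.5 CPM with the LTR5HS Sa array and 42.6 and 50.1 CPM with the nontarget Sp array. In dCas9-KRAB recruitment it was at 25.3 and 25.6 CPM, against 98.3 and 112 CPM with LTR5HS Sa and 83.4 and 96.3 CPM with nontarget Sp. Recruitment and control libraries did not overlap with either fusion. The log2 fold change of recruitment against control was 3.42 (SE 0.15, adjusted p = 4.43e-06) with dCas9-VPR and -1.94 (SE 0.15, adjusted p = 7.87e-05) with dCas9-KRAB in edgeR's quasi-likelihood test over all genes. In RNA from bulk cells, here as for the targets, more cells with a transcript and more transcript per cell cannot be told apart.

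Of the 35 targets, 22 had enough counts for a test in the dCas9-VPR lines, and 21 in the dCas9-KRAB lines. With dCas9-VPR, 7 of 22 passed an adjusted p of 0.05, of which 2 rose and 5 fell. Over all genes tested, 28.0% passed in this comparison, 15.7% higher and 12.3% lower, so the targets passed at about the share of genes in general (31.8%). The median log2 fold change of the 22 was -0.41, against -0.02 over all 16271 genes tested. With dCas9-KRAB, 0 of 21 passed in edgeR, where 2.77% of all genes passed, 0.831% higher and 1.94% lower. At an unadjusted p under 0.05 in edgeR there were 3 of 21, namely SOD2, TNIP2 and ICAM1, against 2109 of all 15520 genes tested. DESeq2 called 1, SOD2. The log2 fold changes of the 21 lay between -0.35 and 0.43, with a median of 0.14 against 0.00060 over all genes. For 15 of the 21 the 95% interval lay within a 2-fold change in either direction, and for BIRC3, CCL2, CX3CL1, IL32, LAMB3 and TNFAIP2 it did not.

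**Figure D1:**
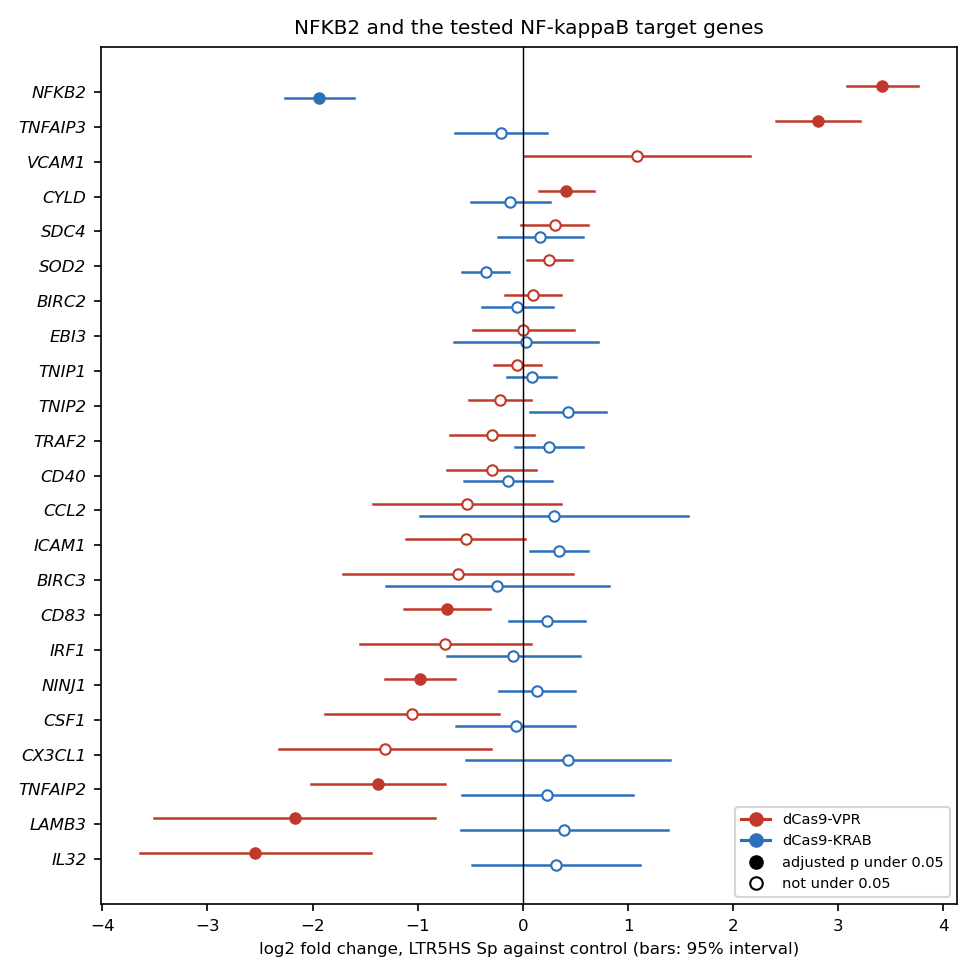
Log2 fold change of LTR5HS Sp against control libraries for NFKB2 and the 22 tested targets, with 95% intervals, in the dCas9-VPR lines (red) and the dCas9-KRAB lines (blue); filled points passed an adjusted p of 0.05. NFKB2 is the one gene past the threshold with both fusions, TNFAIP3 stands next to it with dCas9-VPR, and the other targets lie at or below 1.08 there.

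The sequences that NF-kappaB could read at these genes were looked up in the promoters given by RefSeq on GRCh38.p14, which run from 250 bases before each annotated start to 50 bases after it. The kappaB consensus used has 10 bases (3 G, a purine, any 2 bases, 2 pyrimidines and 2 C), was searched on both strands, and matches may overlap. It occurred in at least 1 promoter of 18 of the 30 targets that the table holds (60.0%), against 13.3% of all 27305 genes in it, which is a property of a list of known targets and says nothing of binding in these cells. CCL2, CD40, CSF1, CX3CL1 and IER3 were not in the table. The windows below are from NFKB2 and from the targets past the threshold that hold a match before a start, each read in the direction of its gene with the match, on either strand, in capitals. They are a selection, and not every match of these genes is shown. They are shown because targets that rose and targets that fell both carry such letters.
NFKB2, chr10:102394461-102394490, plus strand: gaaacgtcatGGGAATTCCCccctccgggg
NFKB2, chr10:102394490-102394519, plus strand: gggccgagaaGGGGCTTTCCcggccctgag
NFKB2, chr10:102395674-102395703, plus strand: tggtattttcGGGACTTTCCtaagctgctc
TNFAIP3, chr6:137867182-137867211, plus strand: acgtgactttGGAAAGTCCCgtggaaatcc
TNFAIP3, chr6:137867194-137867223, plus strand: aaagtcccgtGGAAATCCCCgggcctacaa
CYLD, chr16:50741887-50741916, plus strand: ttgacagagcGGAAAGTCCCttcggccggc
IL32, chr16:3065294-3065323, plus strand: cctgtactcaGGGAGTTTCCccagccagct
CD83, chr6:14117687-14117716, plus strand: ctgcccgccgGGGAATCCCCcgggctggcg
CD83, chr6:14117711-14117740, plus strand: ctggcgcgcaGGGAAGTTCCcgaacgcgcg
LAMB3, chr1:209652465-209652494, minus strand: cacccagccaGGGAGTCTCCagaggtgagg
In these lines the chromosome, first and last base refer to the whole window. The 2 matches of TNFAIP3 begin 67 and 55 bases before its start, and the match of IL32 begins 99 bases before one of its starts. NINJ1 and TNFAIP2, which fell, had no match in these promoter windows.

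Among the feedback inhibitors, TNFAIP3 encodes A20, a ubiquitin-editing enzyme that shuts NF-kappaB signaling off again. With dCas9-VPR it was at 37.4 and 45.6 CPM in recruitment, at 6.73 and 6.46 CPM with LTR5HS Sa and at 4.80 and 5.78 CPM with nontarget Sp. Both recruitment libraries were far above all 4 control libraries. The log2 fold change was 2.80 (SE 0.17, adjusted p = 1.67e-05), a 6.98-fold rise and the largest among the targets. With dCas9-KRAB, TNFAIP3 was at 5.94 and 4.94 CPM in recruitment and between 5.35 and 6.81 CPM in control, and these groups overlapped. The log2 fold change there was -0.21 (95% interval -0.64 to 0.23, adjusted p = 0.689), while NFKB2 fell in the same libraries.

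CYLD, a deubiquitinase that also limits the pathway, rose less with dCas9-VPR. It was at 34.4 and 34.7 CPM in recruitment against 24.9 to 28.2 CPM in control, without overlap. The log2 fold change was 0.41 (SE 0.11, adjusted p = 0.0276). This call was lost with nontarget Sp alone as control (adjusted p = 0.111) and when any 1 library other than nontarget Sp replicate 1 was left out. TNIP1 and TNIP2, which encode ubiquitin-binding partners of A20, did not pass with dCas9-VPR, at -0.05 (95% interval -0.28 to 0.17) and -0.22 (95% interval -0.52 to 0.07).

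**Figure D2:**
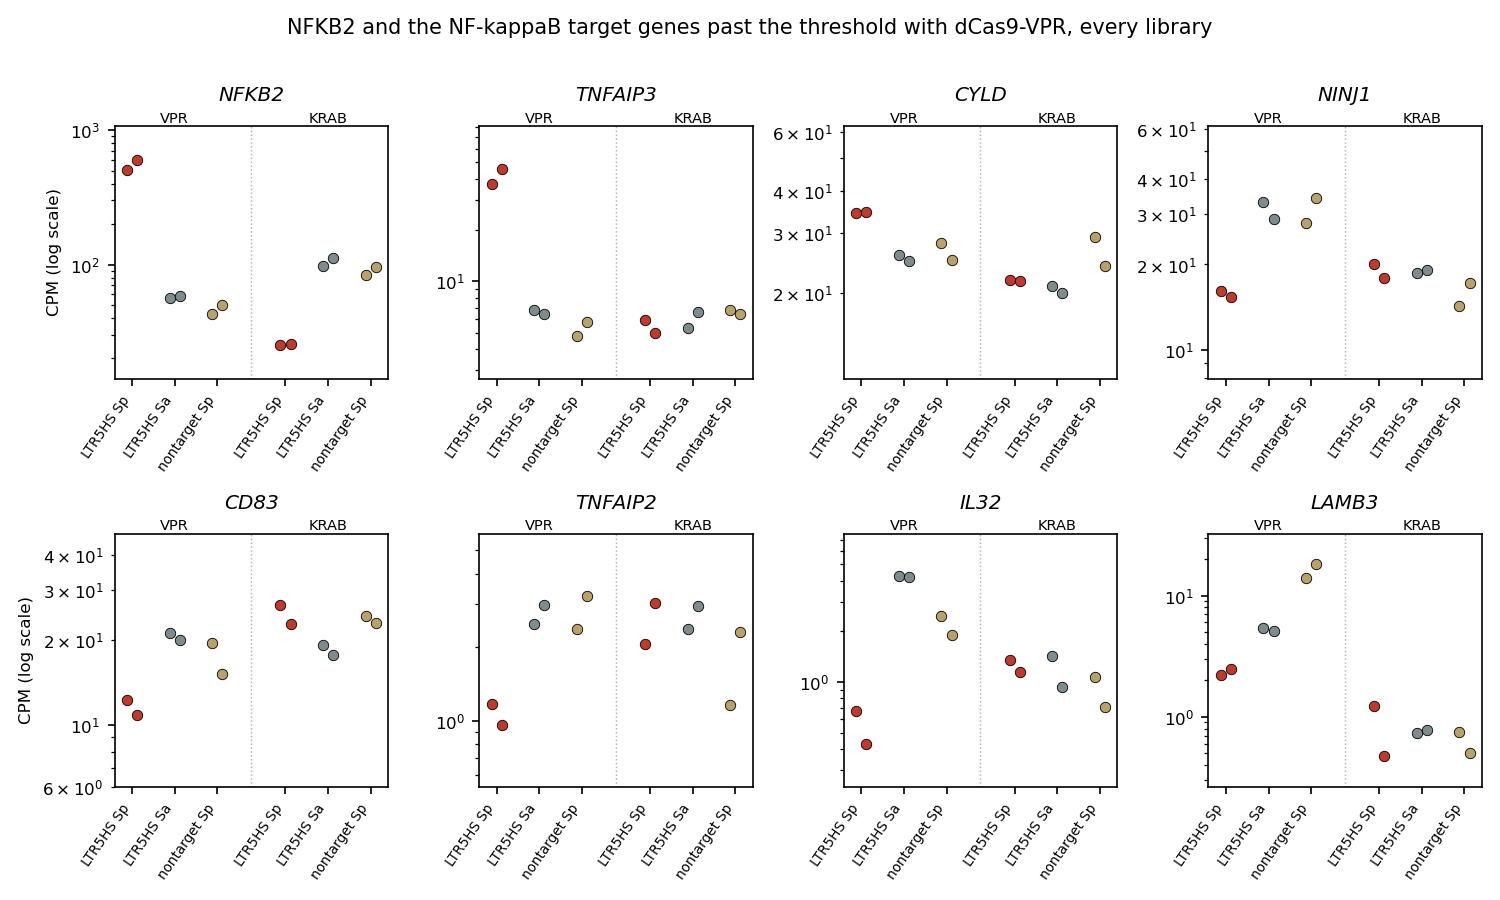
CPM in every library (log scale, 1 point per replicate) for NFKB2 and the 7 targets past the threshold with dCas9-VPR, by guide array, dCas9-VPR lines left and dCas9-KRAB lines right of the dotted line in each panel. TNFAIP3 reaches 37.4 and 45.6 CPM in dCas9-VPR recruitment and stays between 4.80 and 6.81 CPM in the other 10 libraries, while IL32, LAMB3, NINJ1, CD83 and TNFAIP2 lie below all 4 control libraries of the same fusion.

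None of the 4 adaptor and survival genes that could be tested passed when edgeR was fitted to each fusion alone, and in a fit of all 12 libraries SOD2 passed with both. SOD2, the mitochondrial superoxide dismutase and a classical NF-kappaB target, was at 91.4 and 91.7 CPM in dCas9-VPR recruitment against 73.9 to 80.2 CPM in control. In the dCas9-KRAB lines it was at 93.5 and 101 CPM against 121 to 129 CPM. The groups did not overlap with either fusion and lay in opposite orders. Its log2 fold changes were 0.25 (SE 0.09, adjusted p = 0.0814) and -0.35 (SE 0.10, adjusted p = 0.119) when each fusion was tested alone. In the fit of all 12 libraries they were 0.25 (adjusted p = 0.0349) and -0.36 (adjusted p = 0.0371). The difference between them, tested as an interaction of recruitment and fusion, was 0.60 (SE 0.12, adjusted p = 0.00249). BIRC2 and BIRC3 encode inhibitors of apoptosis and TRAF2 a receptor adaptor. BIRC2 and TRAF2 had intervals within a 2-fold change with both fusions, whereas BIRC3, between 0.397 and 1.90 CPM, was too low for such a bound.

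Of the 15 cytokines and chemokines, 5 had enough counts for a test. IL32, a cytokine gene that tumor necrosis factor induces, was at 0.668 and 0.428 CPM in dCas9-VPR recruitment (12 and 8 counts), at 4.24 and 4.22 CPM with LTR5HS Sa and at 2.48 and 1.89 CPM with nontarget Sp. All control libraries were above both recruitment libraries. Its log2 fold change was -2.54 (SE 0.48, adjusted p = 0.00518), and without recruitment replicate 2 the call was lost (adjusted p = 0.0582). With dCas9-KRAB it was between 0.713 and 1.42 CPM in all 6 libraries, and the log2 fold change was 0.32 (95% interval -0.48 to 1.12).

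CSF1, the macrophage colony-stimulating factor, and CX3CL1, a membrane-bound chemokine, had values below control with dCas9-VPR that did not pass in edgeR, at -1.05 (SE 0.36, adjusted p = 0.0619) and -1.31 (SE 0.44, adjusted p = 0.0568). Both passed in DESeq2 (adjusted p = 0.0137 and 0.00563) and in the edgeR fit of all 12 libraries (adjusted p = 0.0257 and 0.0432). Both differed between the control arrays, as described further on. EBI3, a subunit of the cytokines IL-27 and IL-35, had a log2 fold change of 0.01 (95% interval -0.48 to 0.49) with dCas9-VPR and 0.03 (95% interval -0.66 to 0.72) with dCas9-KRAB. CCL2, a chemokine for monocytes, had between 5 and 20 counts a library.

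The other chemokines and cytokines on the list could not be tested. CXCL1, CXCL2, CXCL3, CCL20, IL6, IL1B, TRAF1, BCL2A1 and IER3 had at most 14 counts in any library. CXCL1, CXCL2 and CXCL3 are close paralogs, and whether this affected their counts was not tested. IL1B, which encodes interleukin 1 beta, had 12 and 9 counts in dCas9-VPR recruitment, 5, 2, 0 and 2 in its control, and at most 3 in any dCas9-KRAB library. Without the filter on low counts it passed with dCas9-VPR (log2 fold change 2.30, SE 0.71, adjusted p = 0.0405). IL6 had 13 and 4 counts in dCas9-VPR recruitment and 1, 7, 9 and 7 in its control, and these groups overlapped.

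CXCL8, TNF, LTA and LTB were listed at 0 in all 12 libraries. TNF, LTA, LTB and IER3 lie in the major histocompatibility complex on chromosome 6, and neither the zeros of TNF, LTA and LTB nor the at most 6 counts of IER3 can be read as absence. The length counted for TNF was 13041 bp, while the gene spans 2772 bp in RefSeq, and LTB was counted over 7146 bp against a span of 1868 bp and IER3 over 7440 bp against 1349 bp. LTA was counted over 11235 bp, below its RefSeq span of 13715 bp but 6.47 times the length of its exons in GENCODE. Of 981 genes counted over more than their span, 50.7% were at 0 in every library, against 11.1% of the other matched genes. DDX39B, a splicing helicase gene of the same complex that cells use generally, was also listed at 0 in every library.

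Among the genes for surface receptors, adhesion and matrix, 3 of 7 fell with dCas9-VPR and none rose, where 12.3% of all genes fell and 15.7% rose; the group as such was not tested. NINJ1, an adhesion protein that also takes part in the rupture of dying cells, was at 16.1 and 15.3 CPM in recruitment and between 28.1 and 34.2 CPM in control. Its log2 fold change was -0.98 (SE 0.14, adjusted p = 0.00157), a 1.97-fold fall that passed whichever library was left out. In the dCas9-KRAB lines NINJ1 was at 20.0 and 17.9 CPM against 14.2 to 19.2 CPM, overlapping, with a log2 fold change of 0.14 (95% interval -0.22 to 0.50).

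CD83, a surface glycoprotein best known from mature dendritic cells, was at 12.2 and 10.8 CPM against 15.1 to 21.2 CPM in dCas9-VPR control. Its log2 fold change was -0.72 (SE 0.18, adjusted p = 0.0182). The call was lost with nontarget Sp alone as control (adjusted p = 0.0604) and without either recruitment library. LAMB3, the beta 3 chain of an epithelial laminin, was at 2.23 and 2.46 CPM in dCas9-VPR recruitment, 5.44 and 5.06 CPM with LTR5HS Sa and 14.0 and 18.1 CPM with nontarget Sp. Its log2 fold change was -2.17 (SE 0.58, adjusted p = 0.0254), and this call too was lost without either recruitment library. It was -1.17 (SE 0.22, adjusted p = 0.00453) against LTR5HS Sa alone and -2.76 (SE 0.25, adjusted p = 4.04e-05) against nontarget Sp alone, so the size depended on the control array by more than 1.5 times while the call did not.

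ICAM1, an adhesion molecule for leukocytes, was at 19.5 and 11.3 CPM in dCas9-VPR recruitment against 18.8 to 27.9 CPM in control, with overlap. Its log2 fold change of -0.55 did not pass (SE 0.25, adjusted p = 0.139), but with the replicate number as a block it was -0.58 and passed (adjusted p = 0.0409). CD40, a receptor of the tumor necrosis factor family, and SDC4, a cell surface proteoglycan, did not pass with either fusion and had intervals within a 2-fold change. VCAM1, a vascular adhesion molecule, had 11 and 15 counts in dCas9-VPR recruitment, between 4 and 11 in its control and at most 1 in any dCas9-KRAB library.

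The remaining targets were TNFAIP2, a gene first found as induced by tumor necrosis factor, and IRF1, a transcription factor of the interferon response. TNFAIP2 was at 1.17 and 0.962 CPM in dCas9-VPR recruitment and between 2.37 and 3.26 CPM in control, without overlap. Its log2 fold change was -1.38 (SE 0.28, adjusted p = 0.00727), and the call was lost without recruitment replicate 2 (adjusted p = 0.0782). IRF1 had a log2 fold change of -0.74 (SE 0.35, adjusted p = 0.160).

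The test of the difference between the fusions passed for 9 of the 22 targets, where 21.0% of all genes passed, 11.5% higher and 9.53% lower. The effect with dCas9-VPR was above that with dCas9-KRAB for TNFAIP3 and SOD2 and below it for TNIP2, IL32, ICAM1, CD83, LAMB3, NINJ1 and TNFAIP2. When each of the 12 libraries was left out in turn, the call was lost in 9 fits for TNIP2, 9 for ICAM1, 8 for LAMB3, 3 for TNFAIP2 and 2 for CD83, and in none for the other 4. The difference was 3.01 (SE 0.25, adjusted p = 2.4e-06) for TNFAIP3, against 5.36 (SE 0.22, adjusted p = 4.31e-09) for NFKB2. In the fit with the replicate number as a block LAMB3 did not pass and 8 of the 9 remained.

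The pathway around the targets was read in a list of 35 further genes, of which 34 were tested with each fusion. With dCas9-VPR, 7 rose and 4 fell (32.4%, against 28.0% of all genes). The list holds NFKB2 itself, and without it 6 of 33 rose and 4 fell (30.3%). Among the subunits, RELB, the usual partner of the NFKB2 product, fell from between 7.48 and 10.7 CPM in control to 4.23 and 5.66 CPM (log2 fold change -0.89, SE 0.24, adjusted p = 0.0257). NFKB1, RELA and REL, which encode the subunits of the canonical branch, did not pass with dCas9-VPR, at -0.17 (SE 0.16), 0.35 (SE 0.11, adjusted p = 0.0508) and -0.41 (SE 0.16). With dCas9-KRAB, NFKB1 was at 0.52 (95% interval 0.20 to 0.84, adjusted p = 0.110), RELA at 0.03 and REL at -0.19. The interaction passed for 10 of the 35 genes (28.6%, against 21.0% of all genes), and without NFKB2 for 9 of 34 (26.5%). NFKB1 (-0.69, adjusted p = 0.0314) and RELB (-0.98, adjusted p = 0.0369) were among them, and RELA and REL were not. Of the others that passed, NFKB2, NFKBIE (2.14), TLR3 (3.35), IKBKE (1.56) and TAB2 (0.63) were positive. TAB1 (-0.66), IL1RAP (-1.10) and TNFRSF11A (-1.46) were negative. NFKBIA, which encodes the main cytoplasmic inhibitor and is itself a common target, had a log2 fold change of 0.08 (95% interval -0.22 to 0.39) with dCas9-VPR and 0.13 (95% interval -0.22 to 0.48) with dCas9-KRAB.

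NFKBIE, which encodes another inhibitor of the family, was at 44.8 and 49.0 CPM in dCas9-VPR recruitment and between 14.5 and 22.7 CPM in control. It rose by 1.44 on the log2 scale (SE 0.18, adjusted p = 0.000723). With dCas9-KRAB its log2 fold change was -0.70 (SE 0.17, adjusted p = 0.0706). Of the receptors, LTBR, TLR3, TLR4 and TLR5 rose with dCas9-VPR, by 2.49, 2.55, 2.71 and 1.88 on the log2 scale, as did the kinase gene IKBKE by 0.87. TAB1, IL1RAP and TNFRSF11A fell. TLR4 had between 2 and 9 counts in the dCas9-VPR control libraries and TLR5 between 3 and 25, so their lowest values lay at or below the floor. With dCas9-KRAB, LTBR, TLR3, TLR4 and TLR5 were at 1.26, -0.80, -0.55 and 0.18, and none of them passed. With dCas9-KRAB, NFKB2 was the one gene of the 34 tested that passed in edgeR (2.94%, against 2.77% of all genes), and without it 0 of 33 passed.

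The position of the guide matches was read from the genome. All matches of the 12 guides (16 bases followed by the NGG motif, no mismatch) were found in GRCh38, and a cluster was defined as at least 2 different guides with gaps of at most 1000 bases. The cluster nearest to NFKB2 lay 3.7 kb upstream of its start and held matches of 6 guides. Distances ran from the start of the canonical transcript in GENCODE to the midpoint of the cluster. For NFKB2 that start was base 102395705, while the span of the gene begins at base 102394110, nearer to the cluster. The paper gives a shorter distance between NFKB2 and its nearest LTR5HS. Of the targets, TNFAIP3 had the nearest cluster, 22.2 kb upstream of its start with matches of 3 guides, followed by IL1B at 98.0 kb and SOD2 at 101.9 kb, both upstream. Within 100 kb there was a cluster for 2 of the 35 targets, where 6.57% of all genes with a position had one, and within 500 kb for 5 of the 35, against 24.22%. The median distance was 1611.0 kb over the targets and 1533.6 kb over all genes. The 5 targets that fell with dCas9-VPR had their nearest cluster between 510.7 kb (LAMB3) and 4109.4 kb (CD83) away, and CYLD at 2877.1 kb. Guides of the same array match near NFKB2 and near TNFAIP3, and binding of dCas9 was not analysed here, so an effect of that cluster and an effect of the NFKB2 product on TNFAIP3 cannot be told apart. A difference between the recruitment line and the control lines cannot be told apart from either.

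**Figure D3:**
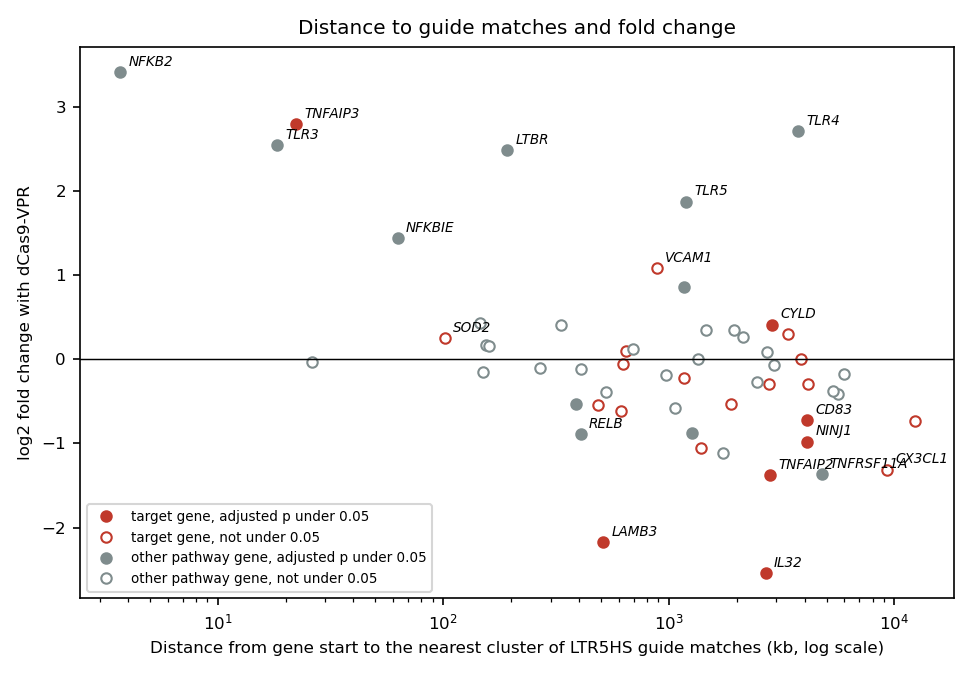
Distance from the start of each tested target (red) and other pathway gene (gray) to the nearest cluster of LTR5HS guide matches in kb (log scale) against the log2 fold change with dCas9-VPR; filled points passed an adjusted p of 0.05. NFKB2 lies at 3.7 kb, TNFAIP3 at 22.2 kb, TLR3 at 18.4 kb and NFKBIE at 62.9 kb, and IKBKG at 26.1 kb did not pass; TLR4 at 3725.3 kb, TLR5 at 1197.1 kb and IKBKE at 1165.0 kb also rose, and the targets that fell lie between 510.7 and 4109.4 kb.

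The control arrays themselves were compared next, because neither should recruit a fusion. With dCas9-VPR, 4 of the 22 targets were lower with LTR5HS Sa than with nontarget Sp and none was higher, where 4.51% of all genes passed, 1.90% higher and 2.61% lower. These were LAMB3 (-1.59, SE 0.20, adjusted p = 0.00448), CX3CL1 (-1.24, SE 0.19, adjusted p = 0.00848), CSF1 (-1.0, SE 0.18, adjusted p = 0.0182) and IRF1 (-1.01, SE 0.17, adjusted p = 0.0145). CX3CL1 was at 8.79 and 9.43 CPM with LTR5HS Sa and at 21.3 and 22.4 CPM with nontarget Sp, while recruitment had 7.18 and 5.24 CPM. CSF1 was at 8.21 and 9.34 CPM, 17.7 CPM in both nontarget Sp libraries, and 7.13 and 5.61 CPM in recruitment. IRF1 was at 7.67 and 6.85 CPM with LTR5HS Sa, 15.3 and 14.4 CPM with nontarget Sp, and 6.57 and 6.63 CPM in recruitment.

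For CX3CL1, CSF1 and IRF1, recruitment therefore lay close to 1 control array and far from the other. Against nontarget Sp alone all passed, at -1.81 (adjusted p = 0.00025), -1.47 (adjusted p = 0.000695) and -1.16 (adjusted p = 0.00213). Against LTR5HS Sa alone none passed, at -0.56 (adjusted p = 0.0632), -0.47 (adjusted p = 0.0972) and -0.15 (adjusted p = 0.568). Without either LTR5HS Sa replicate, the difference between the arrays passed for LAMB3 alone. With the replicate number as a block 6 passed, IL32 and SDC4 in addition. With dCas9-KRAB, 0 of 21 targets differed between the arrays in edgeR and in DESeq2, where 0.567% of all genes passed in edgeR, 0.258% higher and 0.309% lower. An unadjusted p under 0.05 in edgeR was found for 3 of the 21, against 1538 of all 15520 genes tested. A difference between these lines and an effect of their arrays cannot be told apart, since each array with each fusion was 1 line. The same holds in these libraries for recruitment against control and for the interaction, since recruitment too was 1 line in each fusion.

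**Figure D4:**
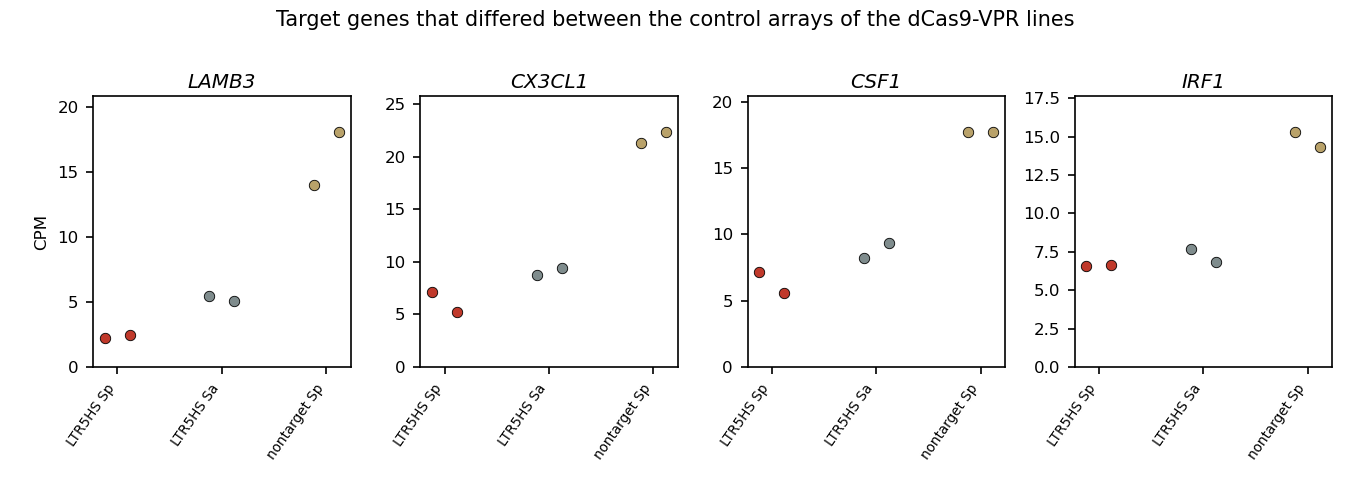
CPM in the 6 dCas9-VPR libraries for the 4 targets that differed between the control arrays, 1 point per replicate, from 0. For CX3CL1, CSF1 and IRF1 the LTR5HS Sa points lie near the recruitment points (5.24 to 9.43 CPM) and both nontarget Sp points lie at 14.4 CPM or above.

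The fusions' control lines were also compared with each other, a comparison added after the values had been seen. Of the 22 targets, 12 passed, where 55.4% of all genes did, so the targets differed about as often as genes in general. Of these, 11 were higher in the dCas9-VPR control lines, where 27.1% of all genes were higher, and 1 was lower, against 28.3% of all genes. That 1 was SOD2, lower by 0.69 on the log2 scale (SE 0.07, adjusted p = 3.69e-06). LAMB3 was higher by 4.0 (SE 0.46, adjusted p = 1.17e-05), CX3CL1 by 3.23 (SE 0.40), CSF1 by 1.97 (SE 0.27), SDC4 by 1.79 (SE 0.15), IL32 by 1.67 (SE 0.31) and IRF1 by 1.29 (SE 0.28). NINJ1, EBI3, TNIP1, TNIP2 and VCAM1 made up the rest, and the call of TNIP1 was lost with the replicate number as a block. TNFAIP3 did not pass here, at -0.09 (95% interval -0.40 to 0.23). The pluripotency markers differed between the same libraries, as given above, and the fusion and the line cannot be told apart.

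Levels of different targets were compared per length, in TPM, where counts are divided by gene length before each library is scaled to the same total. In the dCas9-VPR control lines SOD2 (119 to 133 TPM), SDC4 (102 to 144 TPM) and TNIP1 (109 to 118 TPM) were the highest targets. The range of SDC4 overlapped those of SOD2 and TNIP1, which did not overlap each other. TNFAIP3 was between 2.92 and 4.20 TPM there and between 2.88 and 3.71 TPM in the dCas9-KRAB control lines. SDC4 was between 24.7 and 39.9 TPM in the latter, below its whole range with dCas9-VPR.

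**Figure D5:**
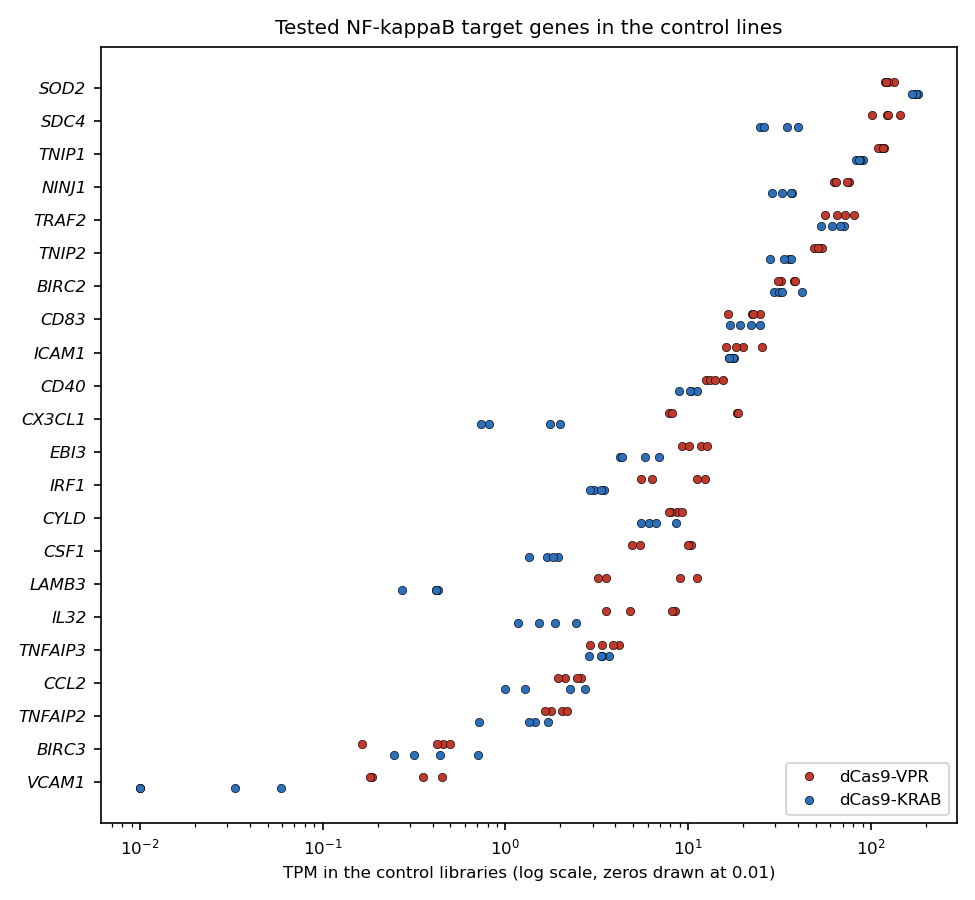
TPM of the 22 tested targets in the 4 control libraries of each fusion (log scale, 1 point per library), ordered by the mean with dCas9-VPR. SDC4, CX3CL1 and LAMB3 are higher with dCas9-VPR than with dCas9-KRAB in every library, while TNFAIP3 overlaps (2.92 to 4.20 and 2.88 to 3.71 TPM).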

How the data were processed

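RNA-seq libraries of 6 NCCIT lines with 2 replicates each were read from the gene table that the authors deposited. To make the deposited counts, the authors trimmed reads with cutadapt 1.8.1, aligned them to hg38 with HISAT2 2.1.0 and assigned them to genes with featureCounts 1.4.6-p2, per the labels and the methods, with no normalization. The gene annotation and strand setting are not given in the sources used here. Genes kept by filterByExpr were fitted with edgeR 4.0.16 in R 4.3.3 (TMM, quasi-likelihood F-test, Benjamini-Hochberg adjustment over all genes, threshold 0.05), recruitment against both control arrays within each fusion; the interaction and the control lines were fitted over all 12 libraries. Standard errors and 95% intervals come from the same fit. DESeq2 1.42.0 was an alternative. The fits were tested on simulated data.

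The members, roles, pathway and marker lists were chosen with earlier results of these data known. Values in every library are given for NFKB2 and each target past the threshold with either fusion, and further genes were named after their values were seen. The main fits held no term for the replicate number, so their standard errors and p-values are unpaired. Replicate differences correlated between arrays in each fusion (Pearson's r across 16673 genes between 0.1808 and 0.3751). Fits with the replicate number as a block were therefore run as an alternative. The sources used here do not say that libraries of equal number were grown or sequenced together. Guide sequences came from the study's list, gene positions from GENCODE 44, spans and promoters from RefSeq. The floor of 3 counts covers counting error only.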

Additional observations from a re-analysis of the deposited data

Results flagged for a closer look

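Over 47 sets of 4 control libraries (1 gene in 1 fusion, at least 10 counts), 1 value stood apart by Dixon's criterion, where chance alone gives about 5% of groups: LAMB3 was at 0.500 CPM in dCas9-KRAB nontarget Sp replicate 2, the deepest library, and the nearest of the other 3 was at 0.739 CPM.

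The effect of recruitment differed between dCas9-VPR and dCas9-KRAB, by the interaction term in edgeR, for NFKB2 and 9 targets. Recruitment was 1 line in each fusion, so in these libraries its effect and a difference between lines cannot be told apart. The difference of the log2 fold changes was 5.36 for NFKB2 (adjusted p = 4.31e-09), 3.01 for TNFAIP3 (adjusted p = 2.4e-06) and 0.60 for SOD2 (adjusted p = 0.00249). It was -2.86 for IL32 (adjusted p = 0.00422), -2.58 for LAMB3 (adjusted p = 0.0393), -1.61 for TNFAIP2 (adjusted p = 0.0304) and -1.11 for NINJ1 (adjusted p = 0.00194). It was -0.95 for CD83 (adjusted p = 0.0143), -0.88 for ICAM1 (adjusted p = 0.0413) and -0.65 for TNIP2 (adjusted p = 0.0429). The control libraries of the fusions themselves differed for NFKB2 (-0.91 for dCas9-VPR against dCas9-KRAB on the log2 scale, adjusted p = 2.98e-05), SOD2, IL32, LAMB3, NINJ1 and TNIP2, and the part of that in these differences was not tested.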

How the results depend on the processing

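NFKB2 stayed past the threshold in the same direction under each alternative run, between 3.27 and 3.59 with dCas9-VPR and between -2.05 and -1.82 with dCas9-KRAB, and TNFAIP3 between 2.64 and 2.98 with dCas9-VPR. Leaving out each library gave 2 to 8 targets past the threshold with dCas9-VPR (2 without recruitment replicate 2, NINJ1 and TNFAIP3, and 4 without recruitment replicate 1), 0 with dCas9-KRAB, 4 to 8 for the interaction (4 without dCas9-VPR recruitment replicate 2) and 1 to 4 between the control arrays of dCas9-VPR (1 without either LTR5HS Sa replicate). An adjusted p threshold of 0.01 left 4, 4 and 2 targets with dCas9-VPR, for the interaction and between those arrays. Taking the control arrays as separate groups gave 11 with dCas9-VPR, adding CSF1, CX3CL1, IRF1 and VCAM1. With dCas9-KRAB, DESeq2 and the fit of all 12 libraries each gave 1, SOD2, and without a filter 1 target, CX3CL1, differed between the control arrays. With the replicate number as a block 8 targets passed with dCas9-VPR and 0 with dCas9-KRAB, 8 for the interaction, 6 and 0 between the arrays and 11 between the control lines; the calls of targets it changed are given with the results. Where no reason is given, the cause was not tested. A looser kappaB pattern (3 G, any 5 bases, 2 C) matched 93.3% of targets against 61.7% of all genes, and matches of any 1 guide lay at a median of 1075.0 kb. With 2 recruitment libraries a fusion, 13 targets had too few counts for a test, and for TNF, LTA, LTB and IER3 the cause was not tested.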
